A study of Saccharomyces cerevisiae S288C with 6 samples.

Results

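The SUN family of budding yeast is a set of 4 paralogous genes, NCA3 (YJL116C), UTH1 (YKR042W), SIM1 (YIL123W) and SUN4 (YNL066W), out of 5449 Saccharomyces cerevisiae genes measured in the series. The genes were taken by symbol from the annotation of the array, and each had 1 probe set, which stood for the gene. The family was chosen by its signals in the PFA against DMSO comparison below, so those values are given as a description without a test.

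The arrays compared S. cerevisiae S288C cultures, the haploid reference strain of mating type alpha, that had received plakortide F acid (PFA), an antifungal polyketide of marine sponges, with cultures that had received the solvent. PFA was given at its IC50 of 0.62 ug/ml at an optical density of 0.2 and cells were collected at 0.5, in buffered synthetic dextrose medium. Control cultures received 0.25% DMSO and were collected at the same density. Each group had 3 biological replicates, each on 1 Affymetrix Yeast Genome 2.0 array, and neither the time a culture took nor the DMSO content of the PFA cultures is known here.

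SUN proteins share a conserved carboxy-terminal domain with a cysteine-rich motif behind a variable, secreted or wall-targeting amino-terminal part. They are found at the cell wall, have been linked to beta-glucan, and act in cell wall remodelling and in the separation of mother and daughter cells. The genes form pairs left by the ancient whole-genome duplication of yeast, NCA3 with UTH1 and SIM1 with SUN4. NCA3 was found as a nuclear gene that, with NCA2, affects the expression of mitochondrially encoded ATP synthase subunits. UTH1 has been linked to stress resistance, lifespan and the removal of mitochondria by autophagy, SIM1 to the coupling of replication and mitosis, and SUN4, also named SCW3, to septum formation.

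Signals are the authors' scaled intensities on a linear scale, comparable between arrays for the same probe set but not between probe sets. The authors' scaling gave each array a trimmed mean of 1001, and a level of 20.01, the 95th percentile of probe sets made for another organism, was taken as background. Arrays correlated at 0.991 to 0.994 within a group and at 0.923 to 0.929 between groups. The alpha markers MF(ALPHA)1, STE3 and SAG1 and the a markers MFA1, MFA2, STE2 and BAR1 lay above background on all 6 arrays, and 3 of 3 alpha and 3 of 4 a markers fell in PFA. Of 5356 genes above background, 62% changed at a limma adjusted p under 0.05 (Benjamini-Hochberg over all genes tested), 30.3% higher and 31.8% lower in PFA. Changes are relative to the array average, and in bulk cultures fewer cells that express a gene and less RNA per cell cannot be told apart.

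The 4 genes went 3 ways. NCA3 was 49.7-fold higher in PFA than in DMSO, its duplicate UTH1 had nearly the same signal in both groups, and SIM1 and SUN4 were both lower, by 2.61-fold and 2.87-fold. The PFA and DMSO arrays did not overlap for 3 of the 4 genes, where 66.6% of all genes tested did not overlap.

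NCA3 had signals of 7806, 7355 and 8562 in PFA cultures 1 to 3, against 165, 159 and 153 in DMSO cultures 1 to 3. Every PFA array was far above every DMSO array, and the lowest PFA signal was 44.5 times the highest DMSO signal. The means were 7908 ± 610 in PFA and 159 ± 6.16 in DMSO (SD, n = 3 each), and the log2 change was 5.63 ± 0.08 (SE). The DMSO mean was 7.95 times the background level, which was set by probe sets made for another organism. The a markers of this alpha strain had DMSO means of 76.4 (BAR1), 159 (MFA2), 476 (STE2) and 597 (MFA1). How much of the NCA3 signal in DMSO came from UTH1 or other transcript was not tested, so the fold could be a lower bound. Of the 5356 genes tested, 3 had a larger rise than NCA3.

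UTH1 had signals of 16351, 17443 and 18617 in PFA cultures, against 17233, 17774 and 17170 in DMSO cultures. The 3 DMSO arrays lay inside the range of the 3 PFA arrays. The means were 17470 ± 1133 in PFA and 17392 ± 332 in DMSO (SD, n = 3 each), with a log2 change of 0.0046 ± 0.05 (SE). It was 0.16 ± 0.04 after quantile normalization and -0.06 ± 0.05 after centring each array on its median (SE each). Under the authors' scaling, 99.1% of all genes tested had a larger absolute change.

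The UTH1 probe set read near the top of the scale, where the brightest yeast gene on an array had 21943 to 24972. Among the 62 genes with a higher DMSO mean than UTH1, 46 fell, 1 rose and 15 missed the threshold (limma adjusted p under 0.05), with log2 changes from -1.27 to 0.16. Over all genes tested 31.8% fell and 30.3% rose. Picking genes by a high DMSO mean in itself favours falls over rises, so no conclusion is drawn from the lack of large rises. Lower signals were recorded among such bright probe sets. The part of a signal ceiling in the UTH1 value was not tested.

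SIM1 had signals of 2974, 2729 and 3159 in PFA cultures, against 7190, 8321 and 7586 in DMSO cultures. All PFA arrays lay below all DMSO arrays. The means were 2954 ± 216 in PFA and 7699 ± 574 in DMSO (SD, n = 3 each), and the log2 change was -1.38 ± 0.08 (SE). Of the 5356 genes, 76 had a larger fall.

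SUN4 had signals of 1700, 1658 and 1990 in PFA cultures, against 4905, 4976 and 5410 in DMSO cultures. Again the groups were apart on every array. The means were 1783 ± 181 in PFA and 5097 ± 273 in DMSO (SD, n = 3 each), the log2 change was -1.52 ± 0.08 (SE), and 58 genes had a larger fall.

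**Figure D1:**
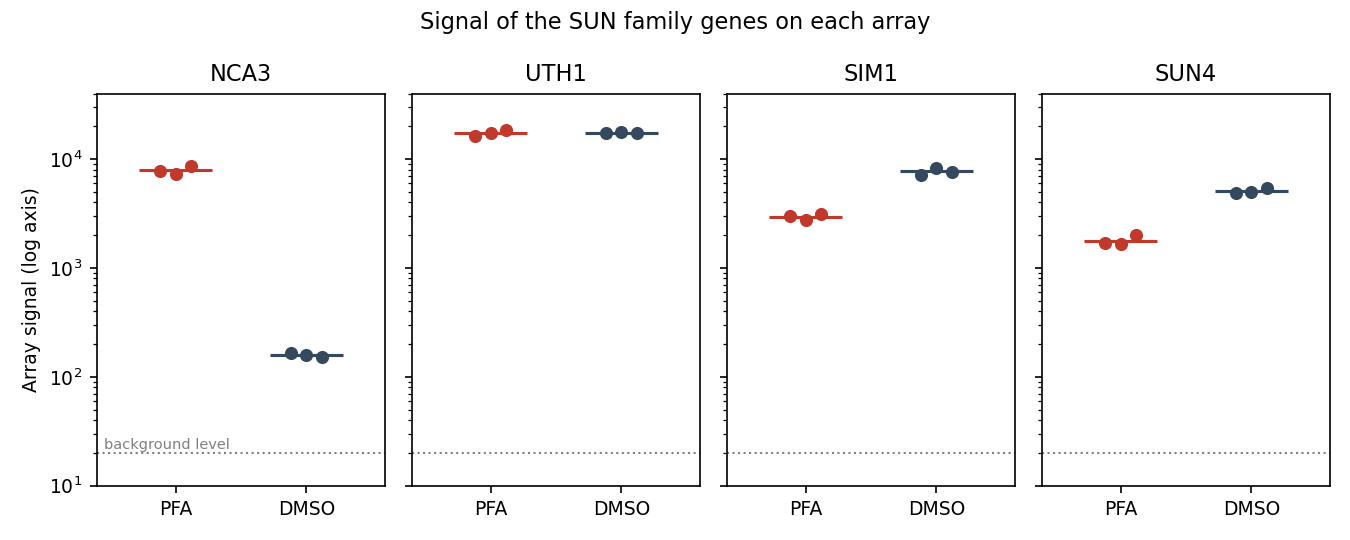
Signal of each SUN gene on each array (log axis), with PFA arrays on the left and DMSO arrays on the right of each panel; points are the 3 replicates of a group, horizontal lines their geometric mean and the dotted line the background level of 20.01. NCA3 lies between 7355 and 8562 in PFA and between 153 and 165 in DMSO, UTH1 overlaps between the groups, and SIM1 and SUN4 are lower in PFA.

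For NCA3, SIM1 and SUN4 the spread between replicates was small beside the difference. The SD of log2 signal over the PFA arrays was 0.11 for NCA3, 0.09 for UTH1, 0.11 for SIM1 and 0.14 for SUN4, where the median over all genes tested was 0.10. Over the DMSO arrays it was 0.06 for NCA3, 0.03 for UTH1, 0.11 for SIM1 and 0.08 for SUN4, where the median was 0.09. Among PFA arrays replicate 3 had the highest signal of each of the 4 genes, and replicate 1 was the lowest for UTH1 while replicate 2 was the lowest for the others.

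Within the 2 duplicate pairs, NCA3 and UTH1 lay far apart and SIM1 and SUN4 close together. The log2 change of NCA3 exceeded that of its duplicate UTH1 by 5.63 ± 0.06 (SE from the spread between arrays). The log2 change of SIM1 exceeded that of its duplicate SUN4 by 0.14 ± 0.09 (SE). UTH1 stood above SUN4 by 1.52 ± 0.07 and SIM1 stood below UTH1 by a difference of -1.39 ± 0.08 (SE each). These differences describe genes picked with their changes known and were not tested.

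Paralogs can be read by each other's probes. On the DMSO arrays the NCA3 probe set gave at most 165 while the UTH1 probe set gave at least 17170, so 165 is the most that UTH1 transcript could have added to NCA3 there. On the PFA arrays the NCA3 probe set gave 7355 to 8562, and how much NCA3 transcript added to the UTH1 signal there was not tested. The probe set for psu1, a SUN gene of fission yeast, which is also on this array and was looked up after the lists had been set, gave 12.4, 2.95 and 13.6 on the PFA arrays and 2.67, 2.67 and 11.0 on the DMSO arrays, all under the background level. That level is the 95th percentile of the probe sets psu1 belongs to, so most of them lie under it by definition. The psu1 reading therefore cannot show whether paralogs were read by each other's probes.

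TOS1 and YMR244W are the more distant, second-group relatives of the SUN genes in yeast. TOS1, which encodes a covalently bound wall protein, had signals of 4909, 4319 and 5437 in PFA, against 5917, 6043 and 6703 in DMSO. It fell, with a log2 change of -0.35 ± 0.08 (SE, limma adjusted p = 0.00301), less than SIM1 or SUN4 in size, though that difference was not tested. YMR244W, of unknown function, had 15.8, 32.7 and 29.2 in PFA, with 1 array below background, against 20.9, 51.4 and 66.3 in DMSO. The groups overlapped through DMSO replicate 1, and the log2 change was -0.75 ± 0.49 (SE, limma adjusted p = 0.207). Without that array YMR244W passed the test (log2 change -1.24, limma adjusted p = 0.0284). With any other single array left out it did not pass (limma adjusted p from 0.165 to 0.56).

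Enzymes that build and trim wall glucan, the polymer to which SUN proteins have been linked, included genes that rose and genes that fell. Of 11 genes 3 rose, 5 fell and 3 missed the threshold (median log2 change -0.05, where all genes tested had -0.02). The share changed was 72.7%, near the 62% of all genes tested. CRH1, a transglycosylase that joins chitin to glucan, had 7918, 7933 and 8588 in PFA, against 2416, 2969 and 3230 in DMSO, and rose 2.86-fold (limma adjusted p = 4.26e-08). UTR2, a second enzyme of that family, had 4849, 4539 and 4904 in PFA, against 8862, 9332 and 9937 in DMSO, and fell 1.97-fold (adjusted p = 5.24e-08). The groups of both genes were apart on every array, in opposite directions. The glucanosyltransferase gene GAS3 had a log2 change of -1.02 ± 0.08 (SE) and the main exo-glucanase gene EXG1 of -0.94 ± 0.05 (SE), and both passed the test.

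Genes listed for septum breakdown and daughter-cell identity, a process in which SUN4 and SIM1 have been placed, all fell. The list was not limited to genes of that process, as it also held the G1 cyclin gene PCL9. The 11 genes tested had a median log2 change of -0.57, and 100% passed where 31.8% of all genes did so downwards. This list, like the others here, was chosen with earlier results of these data known. CTS1, the chitinase that cuts the septum, had 6375, 6615 and 6918 in PFA, against 9525, 10367 and 9617 in DMSO, and fell 1.48-fold (limma adjusted p = 3.36e-06). The G1 cyclin gene PCL9 fell 2.34-fold, the mitotic exit inhibitor gene AMN1 2.06-fold, the daughter-specific wall gene DSE2 1.97-fold and the wall protein gene PRY3 1.96-fold. DSE3 and ASH1, named after their values were seen, were the weakest of the list: their adjusted p was 0.0445 and 0.0358, and leaving out single arrays ended these calls. DSE3 lost its call without PFA replicate 1, 2 or 3 or without DMSO replicate 2 or 3, and ASH1 without PFA replicate 1 or 2 or without any one DMSO replicate.

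The RAM network, a kinase pathway that drives daughter-specific transcription, and the factors around it changed in 7 of 8 genes tested, 5 higher and 2 lower, with a median log2 change of 0.28. That is 87.5% of the list, where 62% of all genes tested changed, 30.3% higher and 31.8% lower. KIC1, a kinase gene of the network named after its values were seen, was called (adjusted p = 0.0204) but not without PFA replicate 1 or without DMSO replicate 2 or 3. SSD1, an RNA-binding protein known to bind the messages of wall genes including SUN genes, had 3135, 3303 and 3394 in PFA, against 2261, 2231 and 2070 in DMSO. It rose, with a log2 change of 0.58 ± 0.07 (SE, limma adjusted p = 1.85e-05). SWI5, an activator of genes expressed as cells leave mitosis, had 358, 339 and 326 in PFA, against 731, 580 and 650 in DMSO, and fell 1.91-fold (adjusted p = 6.48e-06). CBK1, another kinase of the network, rose 1.22-fold, though not without DMSO replicate 1 (adjusted p = 0.0156 and 0.0597). The network members TAO3 and SOG2 rose 1.49-fold and 1.34-fold. MOB2 and HYM1, also of the network, were named after their values were seen. MOB2 fell 1.32-fold (limma adjusted p = 0.00108), and HYM1 missed the threshold (adjusted p = 0.459).

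Genes with the mitochondrial role described for NCA3 were examined next. NCA2, its partner in ATP synthase expression, had 743, 733 and 879 in PFA, against 751, 688 and 756 in DMSO, with overlapping groups. Its log2 change was 0.10 ± 0.09 (SE, limma adjusted p = 0.375). Of 11 tested factors for the expression and assembly of the mitochondrial ATP synthase 2 rose, 1 fell and 8 missed the threshold, a share of 27.3% changed against 62% of all genes (median log2 change 0.01). After centring each array on its median 5 changed, 2 higher and 3 lower. AEP3 and ATP22, which act on the ATP synthase messages in mitochondria, rose 1.52-fold and 1.47-fold, and the assembly factor gene FMC1 fell 1.48-fold. NAM1 and the mitochondrial genes ATP6, ATP8 and OLI1 are not analysed here.

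Genes of mitophagy, the removal of mitochondria by autophagy to which UTH1 has been linked, rose in 8 of 9 cases and fell in 1, with a median log2 change of 0.67, where 30.3% of all genes tested rose and 31.8% fell. ATG32, the receptor on mitochondria, had 513, 574 and 607 in PFA, against 263, 288 and 282 in DMSO, and rose 2.03-fold (limma adjusted p = 2.13e-06). ATG11, the adaptor that binds it, had 1462, 1516 and 1493 in PFA, against 626, 568 and 568 in DMSO, and rose 2.54-fold (adjusted p = 2.31e-08). The kinase gene ATG1 rose 2.86-fold and ATG8, which encodes the protein anchored on autophagosomes, 1.71-fold. WHI2, named after its values were seen, was the one that fell (log2 change -0.39). ATG1, ATG8 and ATG11 serve autophagy or selective autophagy in general and are not specific to mitochondria.

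**Figure D2:**
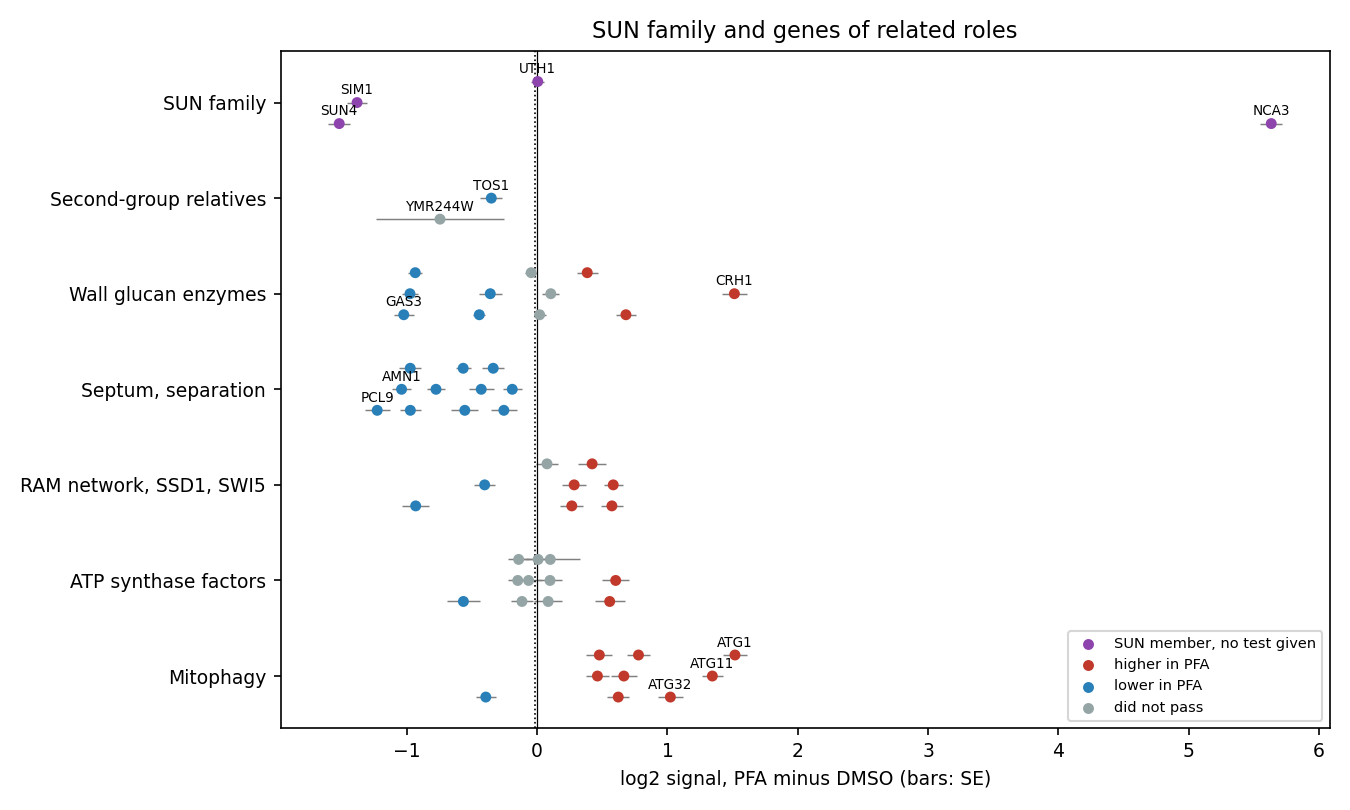
Log2 signal difference, PFA minus DMSO, of each SUN gene and of each gene in 6 lists of related roles. Bars are SE, and the dotted line is the median of all genes tested, -0.02. Colours of the listed genes give the limma call at an adjusted p under 0.05, while SUN genes are purple and carry no call. NCA3 at 5.63 stands to the right of every gene in the lists, of which CRH1 and ATG1 are highest at 1.51 and 1.52.

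Genes whose profile over the 6 arrays was nearest to that of a SUN gene were found by the Euclidean distance between log2 signals centred on each gene's mean. Only genes with a standard symbol were searched, so genes with a systematic name alone were left out. Nearest to NCA3 were HXT5, a hexose transporter gene induced when glucose runs low, at a distance of 0.39, SPG4 at 1.04, PUT1, for proline oxidase, at 1.14 and the stress gene HSP12 at 1.17. HXT5 had 4532, 4946 and 5195 in PFA, against 125, 124 and 111 in DMSO. UTH1, at 6.90, was much farther from NCA3 than these.

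SIM1 and SUN4 were 0.27 apart. Nearest to SIM1 were MSB4 at 0.15, the serine hydroxymethyltransferase gene SHM2 and the pentose phosphate gene RKI1, and nearest to SUN4 were ATR1 at 0.15, the fatty acid elongase gene ELO1, the bud-neck gene NIS1 and the a-factor receptor gene STE3, while ATR1, a multidrug transporter gene, was among the 4 nearest to both. Around UTH1 the nearest were the iron oxidase gene FET3 at 0.04, MSC6, the wall mannoprotein gene CCW14 and ICE2. CCW14 had 10790, 11301 and 11791 in PFA, against 10851, 11378 and 11096 in DMSO. With 2 groups of 3 arrays, such likeness rests mostly on the size of a single difference.

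The genes that adjoin the SUN genes on their chromosomes, looked up in the RefSeq gene table after the lists had been set, gave 3 that fell, 2 that rose and 3 that missed the threshold, about the share of all genes tested that changed, 62%. ASF1, a histone chaperone gene that lies beside NCA3 on the opposite strand, had 1234, 1189 and 936 in PFA, against 1153, 1091 and 1046 in DMSO (log2 change 0.02, limma adjusted p = 0.876). PHO86, on the other side of NCA3, had 6575, 7022 and 6800 in PFA, against 6195, 6467 and 5687 in DMSO (log2 change 0.15, adjusted p = 0.0502). Neither neighbour passed the test.

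AQR1, a plasma membrane transporter gene that follows SUN4 on the same strand, had 2990, 3198 and 3787 in PFA, against 911, 1086 and 981 in DMSO. It rose 3.34-fold (limma adjusted p = 2.03e-08) next to a gene that was 2.87-fold lower, and RPL9B, on the other side of SUN4, fell with a log2 change of -0.47 (adjusted p = 9.24e-05). RPL9B has a near-identical copy, so its signal can mix both. By SIM1, AYR1 fell with a log2 change of -0.45 (adjusted p = 0.000593) and POG1 rose with 0.26 (adjusted p = 0.042). By UTH1, SHB17 fell with -0.50 (adjusted p = 2.02e-05), and YKR041W had 0.51 ± 0.34 (SE, adjusted p = 0.212).

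**Figure D3:**
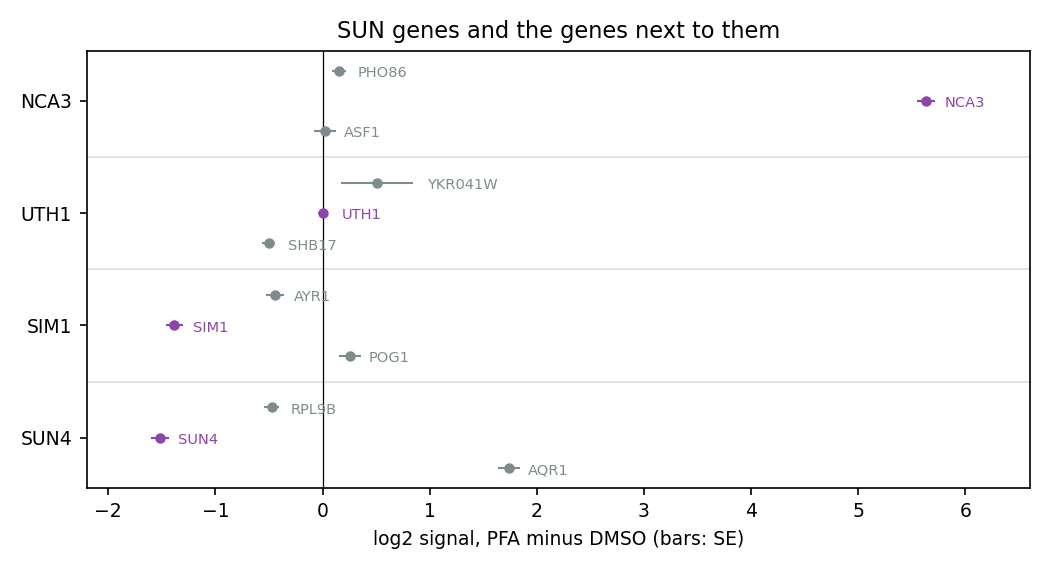
Log2 signal difference, PFA minus DMSO, of each SUN gene (purple) and of the protein-coding genes on either side of it (grey); bars are SE. Both neighbours of NCA3 lie near 0 beside NCA3 at 5.63, and AQR1 at 1.74 lies opposite to SUN4 at -1.52.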

How the data were processed

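The authors deposited 1 signal intensity per probe set and array, unlogged and scaled so that arrays share a trimmed mean. GCOS 1.1 was used, per the submitters' processing notes. How probes were summarised and background removed is not given in the sources used here, and no scaling was added. Names came from the array's annotation, updated with RefSeq gene IDs: of 10928, 5498 matched a single S. cerevisiae gene, covering 5449 genes, with 12 symbols updated. Genes with a mean log2 signal above the background level (log2 4.32) were tested, which left out 93, and all 4 SUN genes passed. The brightest probe set stood for a gene.

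Log2 was taken without a pseudocount, since all values were above 0. Differences, PFA minus DMSO, were fitted with limma 3.58.1 in R 4.3.3 (lmFit, then eBayes with trend; two-sided; p adjusted by Benjamini-Hochberg across the genes tested). A fold change is 2 to the power of the log2 change, and each mean ± SD is of unlogged signals. The number of arrays limits the precision. Groups and replicate numbers came from the sample titles. Same-numbered arrays did not deviate together (correlations -0.05, -0.09 and 0.16), so no block was used.

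The members, the lists and the tests were chosen with earlier results of these data known. The text names the 4 members, the second-group relatives, NCA2, CTS1, SSD1, CBK1 and SWI5, up to 4 changed genes per list with the largest change, and the 4 nearest profiles per member. NAM1, ATP6, ATP8 and OLI1 are not analysed here, and 1 listed item is not reported here. On data simulated for the PFA against DMSO comparison over 5356 genes, 189 of 200 changed genes were recovered and 18 of 5156 unchanged genes were called. The simulated share of changed genes was far below the 62% called in the data, so these rates need not hold for the data. Alternatives were a replicate block, quantile normalization, median centring, other filters, pseudocounts, no variance trend, each array left out and the mean of all probe sets. Plots used matplotlib 3.10.9 (Python 3.11.15).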

Additional observations from a re-analysis of the deposited data

How the results depend on the processing

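NCA3 kept a log2 change of 5.16 to 5.69 over 14 alternatives, with 5.50 and 5.16 after adding pseudocounts of 16 and 64, which lower the ratio of a dim gene by construction. SIM1 kept -1.44 to -1.32 and SUN4 -1.60 to -1.47. UTH1 had 0.16 after quantile normalization, -0.06 after centring each array on its median and -0.04 to 0.05 with single arrays left out, so its sign is not settled. Leaving out single arrays gave 5.57 to 5.69 for NCA3, -1.43 to -1.32 for SIM1 and -1.60 to -1.47 for SUN4.

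The 3323 changed genes became 1893 of 2724 when only signals above the yeast median were tested. That filter also left 2 changed genes of the RAM network list, 0 of the ATP synthase factors and 5 of the mitophagy list, fewer genes being tested. Centring gave 5 changed ATP synthase factors, ATP25 and ATP11 in addition. Without DMSO replicate 1 both second-group relatives passed, and with the other arrays left out in turn 1 did. With the replicate block 3366 genes changed, and the counts of the lists were those without it. The same-numbered arrays share only a number. Arrays left out in turn gave 2963 to 3266 changed genes and 9 to 10 of the septum list. BGL2 was called under quantile normalization (adjusted p = 0.00567) and the call of KIC1 was lost there (0.0636), after centring (0.0596) and without PFA replicate 1 (0.0598), DMSO replicate 2 (0.0614) or DMSO replicate 3 (0.0929). Of 161 alternative values, 152 stayed within the spread between replicates or 1.5 times the count.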
